A study of Mus musculus with 6 samples.

Results

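Gpihbp1, Aqp7, Aqp1, Car4, Tcf15, Meox2, C1qtnf9 and Rgcc are 8 genes of the fat capillary that serve lipid, water, glycerol and bicarbonate handling or mark the cells that do it. They were taken by symbol from the 31053 genes counted in each library, and their transcripts were read in endothelial barcodes. A barcode (the tag of 1 captured cell) was called endothelial when it held at least 3 UMIs (counts of single captured RNA molecules) of Cdh5, Pecam1 and Cldn5 together and fewer than 30 UMIs of the fibroblast gene Dcn per 10000. This rule used none of the 8 genes and found 5652 endothelial barcodes among 68103. The cells were stromal vascular cells of inguinal white adipose tissue (iWAT) from male C57BL/6 mice, sorted to leave out CD45+ leukocytes and dead cells. Young mice were 9 weeks old and aged mice 57 weeks old. Every mouse spent 3 weeks at 30 °C and was then kept at thermoneutrality (TN, 30 °C), moved to 6 °C for the last 3 days (3D cold) or held at 6 °C for 14 days (14D cold). Each of these 6 combinations gave 1 single-cell library, so the age and temperature tests use libraries of the other conditions as replicates. Ages and treatments differ between libraries, so no animal was shared. The study's methods give separate mice as the default for isolating these cells and name no pool for the single-cell libraries, without giving the number of mice in each.

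White fat stores fatty acids that reach it on lipoprotein particles in the blood. Lipoprotein lipase, held on the capillary wall by GPIHBP1, releases these fatty acids, and capillary endothelial cells pass them on with carriers such as CD36 and FABP4. The same cells carry the water channel AQP1, the water and glycerol channel AQP7 and the surface carbonic anhydrase CAR4, and the transcription factors TCF15 and MEOX2 act as partners in fatty acid uptake by endothelial cells.

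The libraries held 52068837 to 88508349 UMIs and between 540 (Aged 14D cold) and 1758 (Aged TN) endothelial barcodes, with medians of 2834 to 3794 UMIs. All 10 endothelial markers together gave 5782 to 6976 UMIs per 1000000 endothelial UMIs (CPM below). The Aged 14D cold library stood apart. Its fibroblast barcodes had a median of 3385 UMIs against 6958 to 9910 elsewhere, and they held 20.9 CPM of Gpihbp1 against 1.44 to 3.04. Adipocyte markers summed to 88.2 to 366 CPM in endothelial barcodes, and all 6 of them were found in every library. Between 15.1% and 30.5% of endothelial barcodes held at least 3 UMIs of the mural, immune or adipocyte markers. Of the barcode sequences, 524 occurred in more than 1 library, and 2 were endothelial in more than 1 library.

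All 8 genes are protein-coding in the GRCm38 annotation. Gpihbp1 lies at chr15:75596628-75599481 on the plus strand, Aqp7 at chr4:41033074-41048139 on the minus strand, Aqp1 at chr6:55336432-55348555 on the plus strand and Car4 at chr11:84957786-84966044 on the plus strand. Tcf15 is at chr2:152143561-152149097 and Meox2 at chr12:37108540-37179534, both on the plus strand. C1qtnf9 is at chr14:60768134-60780869 on the plus strand, where the antisense gene Mipepos overlaps it, and Rgcc is at chr14:79288756-79301645 on the minus strand.

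Since 2 of the genes encode DNA-binding factors, the promoters were read for the kinds of motif these factors bind. RefSeq promoters of GRCm38.p6, 250 bases before to 50 bases after a start, were at hand for 6 of the 8 genes. The E-box CANNTG, which basic helix-loop-helix factors such as TCF15 bind, was searched on both strands and occurs in 72.3% of 32851 promoters of this length. Its form CACCTG, read as CAGGTG on the other strand and part of the E-box count, occurs in 20.2% of them and was found in the promoters of 3 of the 6 genes, Aqp1, Aqp7 and C1qtnf9. These are shown with Car4, which had no E-box in this window, with each E-box in capitals.
Aqp1, chr6:55336049-55336348, plus strand: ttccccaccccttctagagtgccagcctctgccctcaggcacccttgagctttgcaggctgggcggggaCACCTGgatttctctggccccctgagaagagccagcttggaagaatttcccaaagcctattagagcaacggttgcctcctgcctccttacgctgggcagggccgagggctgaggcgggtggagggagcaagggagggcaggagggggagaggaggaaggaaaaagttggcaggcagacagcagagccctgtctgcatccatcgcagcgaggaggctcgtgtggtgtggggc
Aqp7, chr4:41047913-41048212, minus strand: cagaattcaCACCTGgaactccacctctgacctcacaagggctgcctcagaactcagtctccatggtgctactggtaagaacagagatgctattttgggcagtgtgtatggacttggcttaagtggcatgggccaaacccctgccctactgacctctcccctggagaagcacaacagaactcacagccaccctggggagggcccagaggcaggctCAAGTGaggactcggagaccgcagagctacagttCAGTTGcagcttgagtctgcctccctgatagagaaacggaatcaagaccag
C1qtnf9, chr14:60767884-60768183, plus strand: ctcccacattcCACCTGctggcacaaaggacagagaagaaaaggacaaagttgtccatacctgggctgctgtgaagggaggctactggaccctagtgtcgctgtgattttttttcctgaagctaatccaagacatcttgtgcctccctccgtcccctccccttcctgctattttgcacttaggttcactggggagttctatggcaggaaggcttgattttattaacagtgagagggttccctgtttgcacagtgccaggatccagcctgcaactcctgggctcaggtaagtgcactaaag
Car4, chr11:84957504-84957803, plus strand: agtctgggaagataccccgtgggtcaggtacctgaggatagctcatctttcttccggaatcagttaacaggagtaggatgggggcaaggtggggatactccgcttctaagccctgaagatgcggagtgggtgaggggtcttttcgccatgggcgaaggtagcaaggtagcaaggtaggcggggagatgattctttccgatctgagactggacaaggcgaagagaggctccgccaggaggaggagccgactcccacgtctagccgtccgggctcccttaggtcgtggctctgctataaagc
The CACCTG form began 181 bases before the start in Aqp1, 241 before it in Aqp7 and 239 before it in C1qtnf9. Another Aqp7 promoter of this set, not shown, holds the same site 67 bases before its own start. The homeobox core TAATNA, a form that factors such as MEOX2 can bind, was searched on both strands, was found only in C1qtnf9 among the 6 genes, and occurs in 26.5% of all promoters. A motif match is a description of the letters and not of a bound site.

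The 8 genes were strongly enriched in endothelial barcodes. They were chosen as genes of the fat capillary with earlier results of these data known. The direction was therefore foreseeable, and the values below describe its size. Against fibroblast barcodes of the same libraries, all 8 were higher in edgeR's quasi-likelihood test with library as a block (Benjamini-Hochberg adjusted p between 9.68e-11 and 3.37e-08), in a comparison where 73.8% of all genes passed the threshold of 0.05. Gpihbp1 stood at 2347 to 3535 CPM in endothelial and 1.44 to 20.9 CPM in fibroblast barcodes, a log2 fold change of 9.46 ± 0.50 (SE, 6 libraries). The secreted protein gene C1qtnf9, the aquaporins Aqp7 and Aqp1, Tcf15 and Car4 followed, with log2 fold changes of 8.86 ± 0.39, 8.59 ± 0.45, 8.20 ± 0.37, 6.67 ± 0.18 and 6.61 ± 0.29. The smallest differences belonged to Rgcc, a cell cycle regulator that responds to complement, at 4.55 ± 0.08, and Meox2 at 3.32 ± 0.06. Both were measured in fibroblasts of every library, Rgcc at 40.0 to 53.3 CPM and Meox2 at 10.2 to 15.8 CPM.

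**Figure D1:**
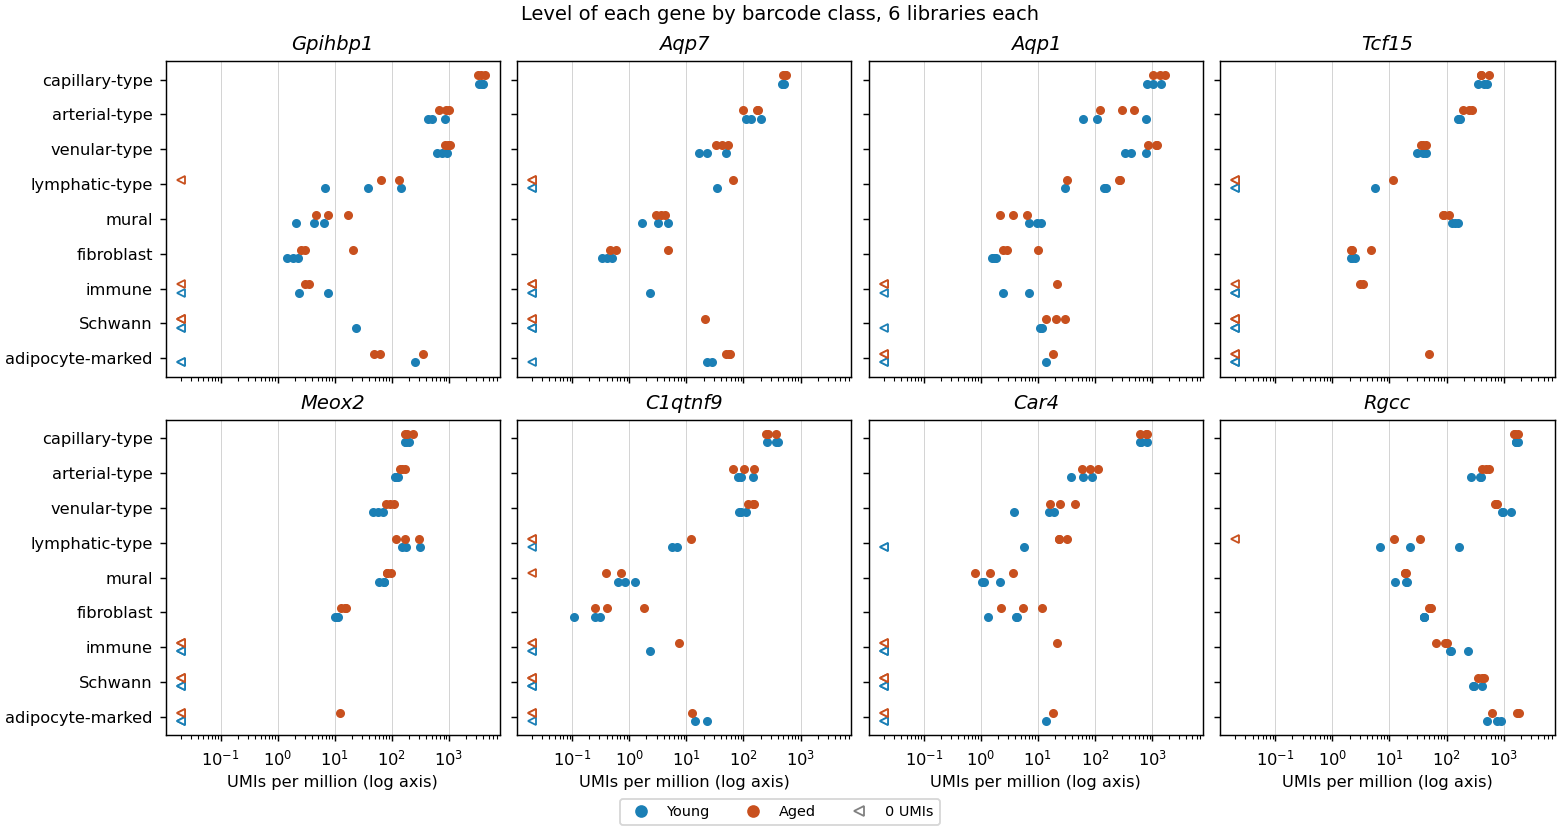
Level of each gene in 9 classes of barcodes, in CPM of the class on a log axis, with 1 point per library (young blue, aged orange) and open triangles for libraries with 0 UMIs of the gene. Gpihbp1, Aqp7, Tcf15, C1qtnf9 and Car4 are highest in capillary-type barcodes in every library, whereas for Aqp1, Meox2 and Rgcc another class is the highest in at least 1 library; Tcf15 and Meox2 also appear in mural barcodes.

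Within the endothelium, barcodes were divided by marker genes that include none of the 8: capillary-type (4411 barcodes; Cd300lg, Rbp7, Timp4, Btnl9, Kdr), venular-type (659; Ackr1, Selp, Sele, Lrg1, Vwf, Plvap), arterial-type (290) and lymphatic-type (100). All 8 genes were higher in capillary-type than in venular-type barcodes (edgeR, library as a block), where 30.8% of all genes passed the threshold. This direction too was foreseeable, since the genes and the dividing rule were chosen with these data already known. The contrast was steepest for Car4, at 603 to 821 CPM against 3.81 to 44.0 CPM (log2 fold change 5.36 ± 0.16, adjusted p = 6.96e-17). Aqp7 differed by 3.91 ± 0.14, from 468 to 556 CPM in capillary-type to 16.5 to 53.8 CPM in venular-type barcodes. Tcf15 was nearly as steep at 3.63 ± 0.12, its venular-type level lying between 30.5 and 44.0 CPM. Gpihbp1 (2.16 ± 0.08), C1qtnf9 (1.54 ± 0.15) and Meox2 (1.39 ± 0.12) were graded more gently. The weakest gradients were those of Rgcc, 0.93 ± 0.09, and Aqp1, 0.77 ± 0.15 (adjusted p = 3.70e-04). Venular-type barcodes held 335 to 1197 CPM of Aqp1, and their range overlapped that of capillary-type barcodes, 818 to 1652 CPM. All 8 remained higher when DESeq2 or other size factors were used and when any 1 library was left out, with adjusted p up to 0.0346.

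The transcripts were spread unevenly over the endothelial barcodes. The 10% of barcodes richest in Gpihbp1 held 26.5% to 32.4% of its UMIs, and those richest in Aqp1 held 46.7% to 60.3% of its UMIs. For the other genes this share lay between 31.9% (Rgcc) and 48.4% (Meox2). A small set of barcodes thus carried much of the Aqp1 signal in every library. Between 79.1% and 86.6% of its endothelial UMIs were in capillary-type barcodes, against 96.5% to 98.2% for Car4. Venular-type barcodes held 8.88% to 18.8% of Aqp1 and 5.21% to 17.6% of Rgcc.

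Genes that varied across endothelial barcodes like the 8 were ranked by their mean correlation over libraries with the mean z score of the 8, in 5425 barcodes thinned to 1000 UMIs and over 2995 genes. The 10 most alike were Fabp4 (mean Pearson r = 0.58), Cd36 (0.50), Tmsb4x (0.44), Fabp5 (0.43), Timp4 (0.41), Cldn5 (0.37), Gng11 (0.37), Cxcl9 (0.34), Cavin2 (0.33) and Lpl (0.32). Fabp4 and Fabp5 encode fatty acid binding proteins, Cd36 the fatty acid translocase and Lpl the lipase that GPIHBP1 holds. Timp4 is also a marker of the capillary type and Cldn5 is a gene of the endothelial rule. At the other end lay the mitochondrial gene mt-Co1 (r = -0.42), the venular marker Plvap (-0.41), Clu (-0.38) and the mitochondrial genes mt-Co3 (-0.37) and mt-Atp6 (-0.35). Between pairs of the 8 themselves, the median r over libraries ran from 0.017 (Tcf15 with Meox2) to 0.39 (Gpihbp1 with Car4). In capillary-type barcodes it ran from -0.014 (Aqp7 with Aqp1) to 0.27 (Gpihbp1 with Aqp1). The barcodes of a library share its depth and its mix of subsets, so these values describe and do not test.

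With age, the levels of the channels and of the lipase anchor in endothelial barcodes were higher in the aged library at each temperature, but only Aqp1 passed the test across genes. Of the 8 genes, 1 was called higher and 0 lower in aged mice by edgeR with temperature as a term, where 1.44% of 11447 genes passed. An unadjusted p under 0.05 was reached by 6 of the 8, against 15.8% of all genes. DESeq2 called 1, against 0.993% of the 9671 genes to which it gave an adjusted p. With no filter on low counts, 6 of the 8 were called higher, against 4.83% of 18621 genes: Aqp1, Car4, Aqp7, Gpihbp1 (adjusted p = 0.0103), Meox2 (0.0169) and Tcf15 (0.0213). With equal numbers of barcodes thinned to 1000 UMIs, 0 of the 8 were called, against 0.489% of 6951 genes.

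Aqp1 stood at 1108 (TN), 852 (3D cold) and 656 CPM (14D cold) in young and at 1413, 1296 and 977 CPM in aged endothelial barcodes. The aged library was higher at every temperature, and the ranges of both ages overlapped because both fell from TN to 14D cold. The log2 fold change was 0.57 ± 0.08 (adjusted p = 0.0172, edgeR). This call held without any 1 library (adjusted p between 0.00236 and 0.0488). In such a fit the library left alone at its temperature does not inform the age change. Omitting one or the other library of a temperature thus gives no separate checks. The call was lost without the temperature term (adjusted p = 0.211) and when barcodes with mural, immune or adipocyte markers were left out (log2 fold change 0.35, adjusted p = 0.0929). With equal numbers of barcodes thinned to 1000 UMIs it was lost too (0.32, adjusted p = 0.108). Hemoglobin transcripts, which mark red blood cells, a cell type that also makes AQP1, summed to 662, 2032 and 695 CPM in young and 2555, 1956 and 459 CPM in aged barcodes. Their part in the result was not tested.

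Aqp7 stood at 318, 347 and 369 CPM in the young and 375, 453 and 453 CPM in the aged libraries, in the order TN, 3D and 14D cold. Every aged library lay above every young one, with a log2 fold change of 0.37 ± 0.08 and an adjusted p of 0.0571, which fell to 0.0411 without the Aged TN library. The share of all genes whose levels separated the ages in this way was not counted. Adipocyte markers moved beside Aqp7, from 124, 189 and 88.2 CPM in young to 149, 366 and 231 CPM in aged endothelial barcodes, and their part in the result was not tested. The adipocyte-marked barcodes themselves held 0 to 57.5 CPM of Aqp7 (14 UMIs in 125 barcodes).

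Gpihbp1, which encodes the lipase anchor, stood at 2347, 2778 and 2834 CPM in young and 2616, 3535 and 3138 CPM in aged barcodes. Its log2 fold change was 0.28 ± 0.07 (adjusted p = 0.105). Car4, at 398, 424 and 567 CPM in young and 452, 660 and 641 CPM in aged barcodes, gave 0.39 ± 0.11 (adjusted p = 0.119). For both genes the aged library was the higher one at each temperature while the ranges overlapped. Leaving out Young 14D cold, Aged TN or Aged 14D cold brought Car4 past the threshold (adjusted p = 0.0469, 0.0485 and 0.0424).

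The factor genes pointed the same way. Tcf15 stood at 349, 251 and 332 CPM in young and 425, 326 and 347 CPM in aged barcodes (log2 fold change 0.30 ± 0.09, adjusted p = 0.137). Without Young 14D cold or Aged 14D cold it passed the threshold (adjusted p = 0.0429 and 0.0379). Meox2 stood at 154, 145 and 146 CPM in young and 206, 157 and 175 CPM in aged barcodes, and its change was 0.33 ± 0.08 (adjusted p = 0.105). The ages did not overlap for Meox2, and the share of all genes separated like this was not counted.

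C1qtnf9, a secreted relative of adiponectin, did not follow. It measured 287, 200 and 278 CPM in young and 309, 219 and 242 CPM in aged barcodes (log2 fold change 0.08 ± 0.09, adjusted p = 0.745). Rgcc measured 1320, 1305 and 1517 CPM in young and 1297, 1536 and 1401 CPM in aged barcodes (0.09 ± 0.09, adjusted p = 0.662). Both genes crossed over between temperatures, so the difference was within the spread between libraries.

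**Figure D2:**
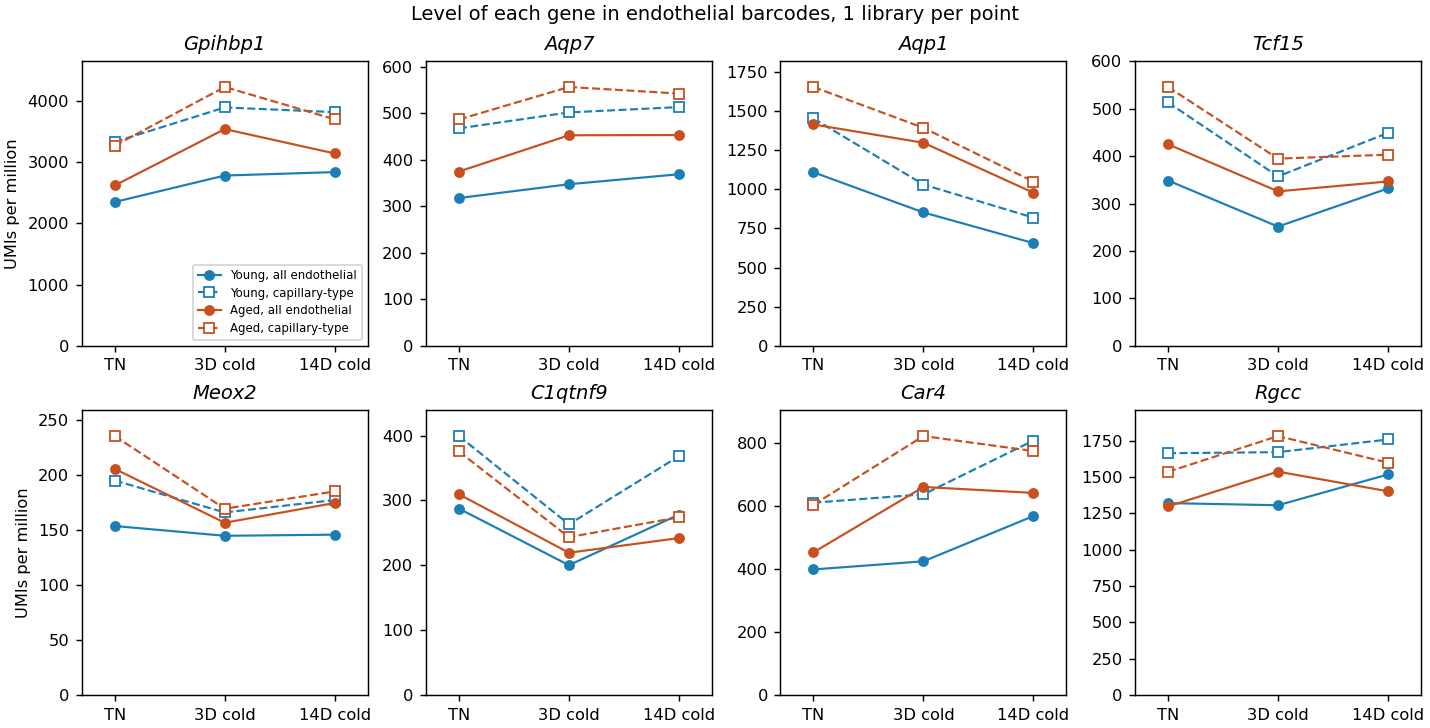
Level of each gene in CPM in each of the 6 libraries, by temperature, for young (blue) and aged (orange) mice; filled circles and solid lines are all endothelial barcodes, open squares and dashed lines are capillary-type barcodes. The young and aged lines lie closer together in capillary-type barcodes for most genes, and Aqp1 declines from TN to 14D cold in both.

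The mix of endothelial subsets also differed between the ages. Capillary-type barcodes made up 72.5%, 75.2% and 76.1% of the endothelial barcodes in the young and 78.0%, 83.6% and 82.8% in the aged libraries. The aged mean was 81.5% ± 3.01 and the young mean 74.6% ± 1.90 (SD, n = 3 each; two-sided exact permutation p = 0.10, the smallest that 3 libraries against 3 allow). Venular-type barcodes made up 8.91% ± 3.28 in aged and 13.8% ± 1.03 in young libraries (exact permutation p = 0.10). Every aged library was thus richer in the barcodes where the 8 genes are high, and the test at this size cannot go below 0.10.

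Within capillary-type barcodes alone, 0 of the 8 genes passed the age test by edgeR, against 0.466% of 10518 genes. An unadjusted p under 0.05 was reached by 1 of the 8, against 12.5% of all genes. DESeq2 called 1, against 1.48% of the 2565 genes to which it gave an adjusted p. The gene was Aqp1 in each case. Aqp1 stood at 1451, 1030 and 818 CPM in young and 1652, 1392 and 1049 CPM in aged capillary-type barcodes, higher in the aged library at each temperature. Its log2 fold change was 0.37 ± 0.07, with an adjusted p of 0.0531 by edgeR and 0.0257 by DESeq2. It passed without Young TN, Young 14D cold, Aged TN or Aged 14D cold (adjusted p = 0.0063, 0.0173, 0.00753 and 0.0499). The other 7 genes lay between -0.16 ± 0.09 (C1qtnf9) and 0.17 ± 0.09 (Meox2). Gpihbp1, at 0.06 ± 0.06, and Car4, at 0.15 ± 0.09, were nearer to 0 here than in all endothelial barcodes. The difference between these sets of estimates was not tested, since one holds the other.

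**Figure D3:**
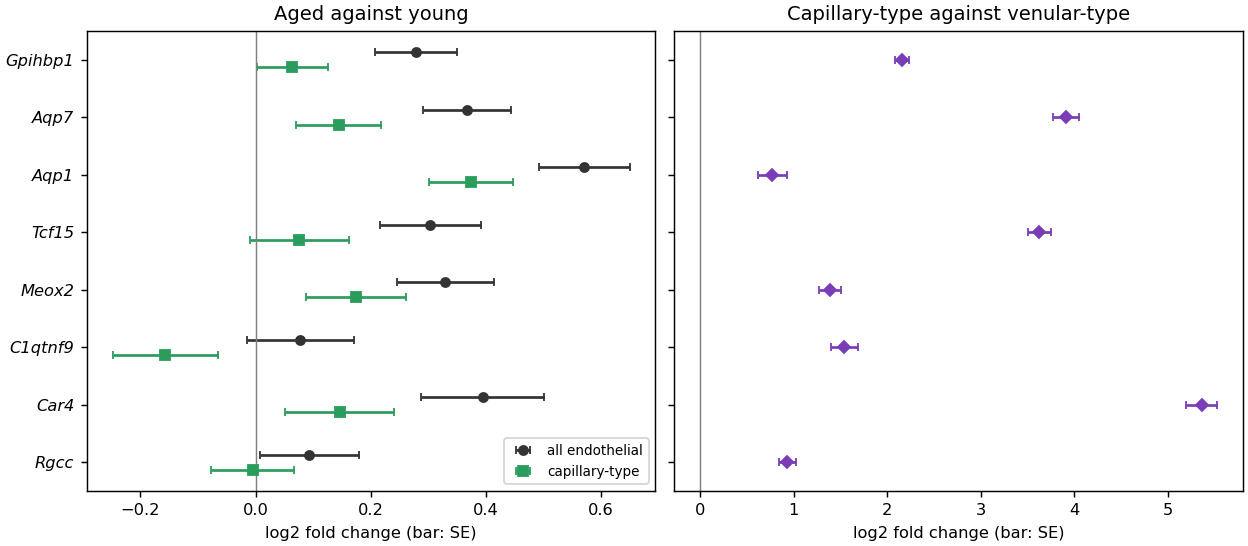
Left, log2 fold change of aged against young libraries for each gene in all endothelial barcodes (black circles) and in capillary-type barcodes (green squares); right, log2 fold change of capillary-type against venular-type barcodes (violet). Bars are standard errors; the age changes reach 0.57 for Aqp1, while the subset contrasts reach 5.36 for Car4.

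With cold, the estimates of the 8 genes lay on both sides of 0, and Aqp1 in capillary-type barcodes was the call of the main tests. In all endothelial barcodes 0 of the 8 passed the joint test of 3D and 14D cold against TN with age as a term, where 0.297% of 11447 genes passed. An unadjusted p under 0.05 was reached by 6 of the 8, against 9.1% of all genes. DESeq2 called 1, Aqp1, against 0.771% of the 7008 genes to which it gave an adjusted p. With no filter on low counts 4 of the 8 were called, against 3.03% of 18621 genes: Gpihbp1 (adjusted p = 0.0127) and Car4 (0.000371) higher, Aqp1 (9.35e-07) and C1qtnf9 (0.00582) lower. With equal numbers of barcodes thinned to 1000 UMIs, Gpihbp1 was called higher (0.00515) and Aqp1 lower (5.33e-05), against 0.95% of 6951 genes. In capillary-type barcodes alone, 1 of the 8 passed, against 1.06% of 10518 genes.

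That gene was Aqp1, which fell with cold. From the capillary-type levels given above it dropped at both ages from TN to 3D cold and again to 14D cold, and the aged 14D cold library, at 1049 CPM, lay below the young TN library, at 1451 CPM. The log2 fold change against TN was -0.34 ± 0.09 at 3D cold and -0.72 ± 0.09 at 14D cold (adjusted p = 0.00979 for both terms jointly). The call held by DESeq2 (2.64e-05), without any 1 library (0.000156 to 0.00518) and in capillary-type barcodes with fewer than 3 UMIs of every other subset list (7.74e-06). In all endothelial barcodes the change was -0.22 ± 0.10 and -0.62 ± 0.10 (adjusted p = 0.0853). That test passed without Young 3D cold, Aged TN or Aged 3D cold (0.0223, 0.0187 and 0.037).

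C1qtnf9 was lowest at 3D cold at both ages, with 399, 263 and 368 CPM in young and 375, 243 and 274 CPM in aged capillary-type barcodes at TN, 3D and 14D cold. Its log2 fold change was -0.58 ± 0.11 at 3D and -0.26 ± 0.11 at 14D cold (adjusted p = 0.0661). It passed without Young TN, Young 14D cold or Aged 14D cold (adjusted p = 0.0132, 0.000759 and 0.00473).

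Tcf15 had the same shape. Its capillary-type level was 513, 357 and 449 CPM in young and 546, 395 and 403 CPM in aged libraries, and its change was -0.46 ± 0.10 and -0.29 ± 0.10 (adjusted p = 0.122). It passed without Young 14D cold or Aged 14D cold (adjusted p = 0.00512 and 0.0315). Meox2 went from 195 to 166 and 177 CPM in young and from 236 to 170 and 185 CPM in aged libraries, with changes of -0.33 ± 0.10 and -0.22 ± 0.11 (adjusted p = 0.324). In both factor genes each cold library lay below the TN library of its age.

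Gpihbp1 lay higher in each cold library than at TN of the same age. It measured 3326, 3888 and 3812 CPM in young and 3265, 4222 and 3694 CPM in aged capillary-type barcodes, a change of 0.33 ± 0.08 and 0.21 ± 0.08 (adjusted p = 0.141). It passed without Young 3D cold, Young 14D cold or Aged 14D cold (adjusted p = 0.039, 0.0142 and 0.038) and in the stricter capillary-type barcodes (0.0218). Car4 changed by 0.29 ± 0.11 and 0.41 ± 0.12 (adjusted p = 0.256), Aqp7 by 0.18 ± 0.09 and 0.17 ± 0.09 (0.597) and Rgcc by 0.14 ± 0.09 and 0.09 ± 0.09 (0.747). For Car4 the young library was highest at 14D cold (610, 636 and 807 CPM) and the aged one at 3D cold (603, 821 and 774 CPM). Like Gpihbp1, the genes Car4, Aqp7 and Rgcc lay higher in each cold library than at TN of the same age. The smallest step was that of Rgcc in young mice, from 1663 CPM at TN to 1670 CPM at 3D cold. None of these genes passed in the main test.

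**Figure D4:**
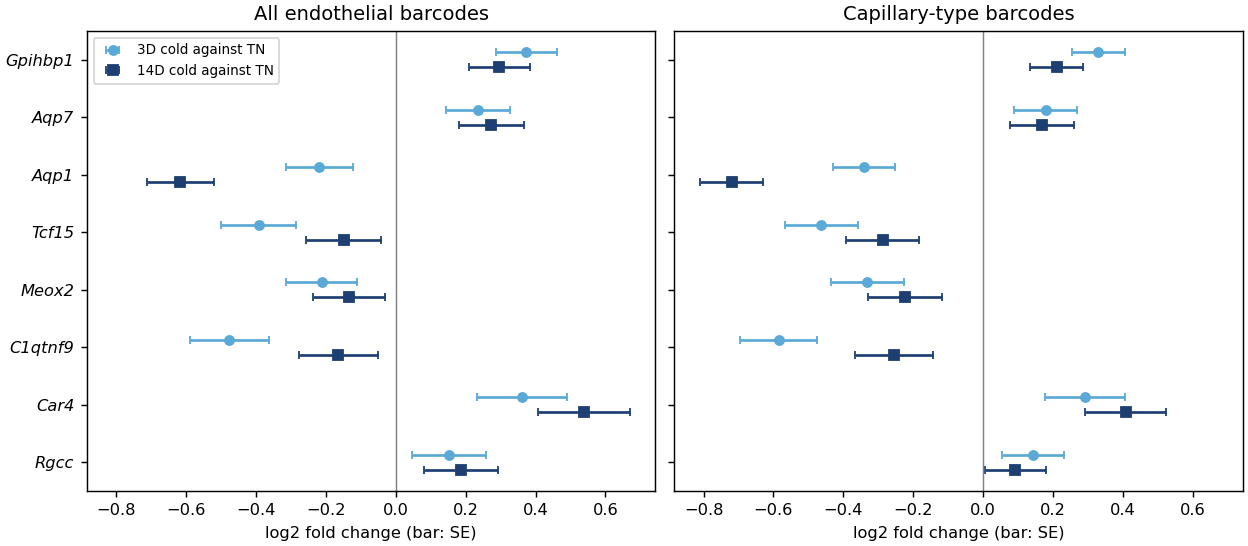
Log2 fold change of 3D cold (light blue circles) and 14D cold (dark blue squares) against TN for each gene, with age as a term, in all endothelial barcodes (left) and in capillary-type barcodes (right). Bars are standard errors; Aqp1 at 14D cold lies farthest from 0, at -0.62 on the left and -0.72 on the right.

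Whether cold acted differently by age was tested as an interaction of age with cold (3D and 14D together). By edgeR 0 of the 8 genes passed, against 0.0249% of 12025 genes, and 0 reached an unadjusted p under 0.05, against 4.07%. DESeq2 called 0, against 0.0333%. The interaction estimates of the 8 ran from -0.22 ± 0.19 (Meox2) to 0.26 ± 0.28 (Aqp1) on the log2 scale, so that with 1 library per condition differences of this size were not detectable.

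The share of endothelial barcodes with a UMI of each gene was compared after thinning every barcode to 1000 UMIs, which left out 15 to 83 shallower barcodes per library. Gpihbp1 was found in 77.2% to 86.9% of them and in 0.19% to 3.83% of fibroblast barcodes. Aqp1 was found in 28.4% to 43.9%, Car4 in 31.9% to 45.1% and Aqp7 in 30.1% to 39.4%. For these the fibroblast shares were at most 1.90%, 1.58% and 1.05%, each in the Aged 14D cold library. Tcf15 (26.3% to 34.6%), Meox2 (13.6% to 21.0%), C1qtnf9 (19.7% to 28.3%) and Rgcc (64.3% to 68.7%) gave the rest. Between the ages, the shares of all 8 genes overlapped at 1000 UMIs. Every aged library lay above every young one for 0 of the 8, against 7.18% of 2994 genes found in at least 5% of barcodes, and the largest difference was 5.44 percentage points for Aqp1 (exact permutation p = 0.30, 0.60 adjusted over the 8 genes). This exact test cannot go below 0.10, so it could not have passed. Thinned to 2000 UMIs, every aged library lay above every young one for 3 of the 8, Gpihbp1, Aqp7 and Tcf15, against 6.91% of genes, and unthinned for 1, Gpihbp1, against 0.365%. The unthinned shares compare unequal depths, with median UMIs of 3124 to 3794 in young and 2834 to 3044 in aged endothelial barcodes. Among capillary-type barcodes, Aqp1 was found in 47.8%, 44.1% and 32.1% of young and 48.1%, 44.1% and 39.6% of aged barcodes at TN, 3D and 14D cold.

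Other genes of lipid transport were read from a list of 25. With age, 2 of the 25 were higher and 0 lower in endothelial barcodes, with a median log2 fold change of 0.17 against -0.01 for all genes: Fabp4 (0.44 ± 0.06, adjusted p = 0.0157) and Cd36 (0.35 ± 0.07, 0.0482). In capillary-type barcodes Fabp4 was higher in aged libraries (0.26 ± 0.04, adjusted p = 0.0327) and Fabp5 lower (-0.44 ± 0.07, 0.0286). With cold, 7 of the 25 passed in capillary-type barcodes (5 by DESeq2), all higher at 14D cold, with a median log2 fold change at 14D cold of 0.18 against -0.0015 for all genes. The largest changes were those of the peptide ligand gene Apln (1.22 at 3D and 2.07 at 14D cold, adjusted p = 0.0247), the endothelial lipase Lipg (0.96 and 1.45, 0.0276), the triglyceride lipase Pnpla2 (1.28 and 0.72, 0.00219) and Fabp5 (0.49 and 0.98, 0.00174). In the UMI sums of capillary-type barcodes, Aqp1 thus fell while these genes rose. Whether this held within single barcodes was not tested.

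Of 15 genes of water, glycerol and bicarbonate handling 8 were expressed enough to test with age, and 0 passed by edgeR or DESeq2, 2 at an unadjusted p under 0.05, with a median of -0.35. With cold, Gpd1, which makes glycerol 3-phosphate, passed among 7 tested in capillary-type barcodes (2.34 at 3D and 0.60 at 14D cold, adjusted p = 0.00177). Of 15 capillary transcription factors 14 were tested. With age 1 was higher, Fli1 (0.41 ± 0.08, adjusted p = 0.0382), and with cold 0 passed by either tool, 4 at an unadjusted p under 0.05. Of 10 adipocyte genes 9 were tested. With age Cidec (1.01 ± 0.19, adjusted p = 0.0415) and Retn (0.99 ± 0.18, 0.0406) were higher in endothelial barcodes, and with cold Retn (1.46 and 0.30, 0.00684), Cidec (1.15 and 0.22, 0.029) and Thrsp (0.87 and 0.56, 0.0112) were higher in capillary-type barcodes. Their part in the values of Gpd1, Pnpla2 and Fabp4, which adipocytes also express, was not tested. Of 10 genes of the dissociation response 0 passed with age or cold by either tool, 5 and 4 at an unadjusted p under 0.05.

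Tcf15 and Meox2 differed least between endothelial and mural barcodes, which carry markers of the smooth muscle cells and pericytes around the vessel and by their rule hold 0 UMIs of Cdh5, Pecam1 and Cldn5. All 8 genes were higher in endothelial than in mural barcodes (69.7% of all genes passed), Tcf15 by 1.40 ± 0.15 and Meox2 by 0.95 ± 0.06 on the log2 scale, and the other 6 by 6.11 to 8.79. That direction was again foreseeable from how the genes were chosen.

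The mix of pericytes and smooth muscle cells within the mural class was not compared between the ages. In mural barcodes Tcf15 stood at 123, 140 and 156 CPM in young and 86.4, 88.9 and 110 CPM in aged libraries at TN, 3D and 14D cold. Each aged library lay below each young one, a separation that was not counted over all genes, and the change was -0.54 ± 0.08 (adjusted p = 0.000624, edgeR). Meox2 went the other way, from 59.6, 72.2 and 72.5 CPM in young to 97.6, 82.0 and 80.3 CPM in aged libraries (0.41 ± 0.11, adjusted p = 0.0331). The Meox2 call was lost by DESeq2 (0.292) and without Young TN (0.465) or Aged TN (0.466), whereas that of Tcf15 held by DESeq2 (0.00866) and without any 1 library (0.000588 to 0.00262). Of the 6 genes tested there, 2 were called higher and 2 lower with age, and 5.68% of 10720 genes passed. The other calls were Gpihbp1 (1.16 ± 0.28, adjusted p = 0.0210), with 10 to 24 UMIs per library, and Aqp1 (-1.02 ± 0.28, 0.0389), with 3 to 46. Gpihbp1 missed the threshold without Young TN, Young 14D cold, Aged TN or Aged 14D cold (adjusted p = 0.0507, 0.133, 0.0615 and 0.150), and Aqp1 without Young 3D cold, Young 14D cold, Aged 3D cold or Aged 14D cold (0.248, 0.0715, 0.223 and 0.0748). DESeq2 gave neither an adjusted p. It called 1 of the 6, Tcf15, against 3.68% of the 3238 genes to which it gave one. Mural Gpihbp1 was 17.2 CPM in Aged 14D cold and 2.11 to 7.56 CPM elsewhere, beside 20.9 CPM in the fibroblast barcodes of that library; the part of RNA from other cells was not tested.

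The age changes of Tcf15 in endothelial and mural barcodes differed from each other. The mural minus endothelial difference was -0.89 ± 0.16 (edgeR with library as a block, adjusted p = 0.0417; 0.0471 by DESeq2), where 2 of the 8 genes and 0.238% of 12174 genes passed. Without Young 3D cold, Young 14D cold, Aged TN or Aged 3D cold it missed the threshold (adjusted p = 0.197, 0.0597, 0.159 and 0.128). The other was Aqp1, at -1.57 ± 0.25 (0.0221). Its mural levels of 2.15 to 11.3 CPM were 0.22% to 1.32% of its endothelial levels, and it missed the threshold without Young 3D cold or Aged 3D cold (0.118 and 0.127). For Meox2 the difference was 0.03 ± 0.13 (0.990). This comparison was not planned, and the same test of fibroblast minus endothelial barcodes called 0 of the 8, with 75 of 15383 genes called.

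**Figure D5:**
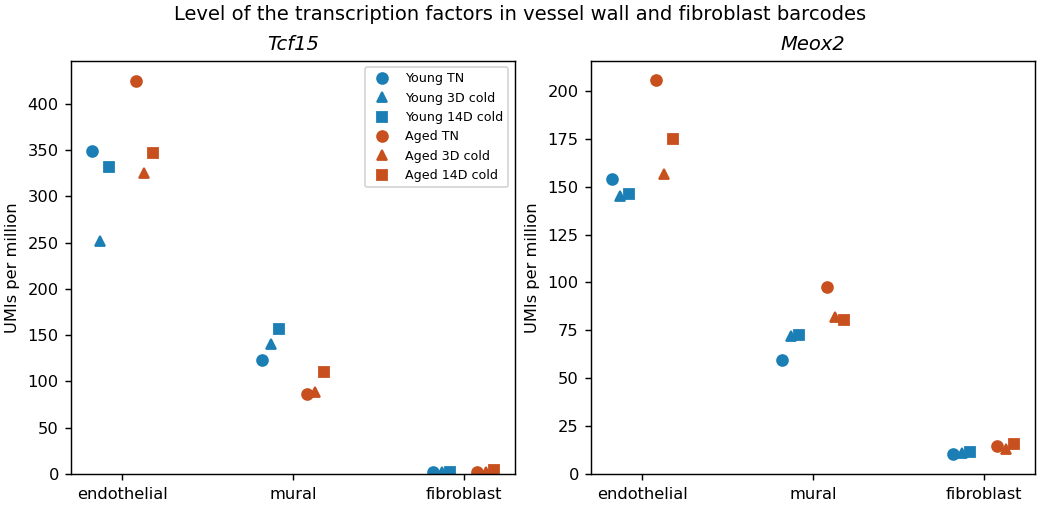
Levels of Tcf15 (left) and Meox2 (right) in CPM in endothelial, mural and fibroblast barcodes, with 1 point per library (young blue, aged orange; circle TN, triangle 3D cold, square 14D cold). In mural barcodes the aged libraries lie below the young ones for Tcf15 (86.4 to 110 against 123 to 156) and above them for Meox2 (80.3 to 97.6 against 59.6 to 72.5). The share of all genes separated in these ways was not counted, and the Meox2 call was lost by DESeq2 and without either TN library.

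In fibroblast barcodes 3 of the 8 genes were called higher with age, where 9.95% of 15039 genes passed. Rgcc rose from 41.0, 40.6 and 40.0 CPM in young to 49.1, 53.3 and 51.7 CPM in aged libraries (0.33 ± 0.06, adjusted p = 0.0193, edgeR). Meox2 rose from 10.2, 11.1 and 11.4 to 14.8, 12.8 and 15.8 CPM (0.39 ± 0.07, 0.0249), and Car4 (0.89 ± 0.20, 0.0413) reached 11.7 CPM in the Aged 14D cold library against 1.32 to 5.58 CPM elsewhere. Rgcc missed the threshold without Young 3D cold or Aged 3D cold (0.160 and 0.170). Meox2 missed it without Young 3D cold, Aged TN, Aged 3D cold or Aged 14D cold (0.0926, 0.0527, 0.0959 and 0.0504), and Car4 without any library but Young TN (0.0523 to 0.0792).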

How the data were processed

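Stromal vascular cells of iWAT were profiled with 10x 3' single-cell RNA-seq in 6 libraries. The deposited files hold raw UMI counts per gene and barcode, which the authors made with Cell Ranger on mm10; their notes also name Seurat and R 4.1.1. Barcodes with more than 200 genes were kept. Raw counts were summed per library and class and tested with edgeR 4.0.16 (R 4.3.3; TMM factors, filterByExpr, quasi-likelihood F test, Benjamini-Hochberg adjustment over all genes tested, threshold 0.05). Age and temperature were both terms of 1 additive fit with 2 residual degrees of freedom. Class contrasts had the library as a block. Not planned were the tests in mural barcodes, the age tests in fibroblast barcodes, the differences of age changes and the stricter capillary-type barcodes. DESeq2 1.42.0 was an alternative. SE is the log2 fold change divided by the root of F. Shares were compared by two-sided exact permutation tests over libraries (scipy 1.17.1, Python 3.11.15). The tests were checked on simulated data.

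Each condition has 1 library, so p-values rest on the spread left between libraries of different conditions. Totals were 52068837 to 88508349 UMIs, and endothelial sums 2025701 to 5846288. A venular-, arterial- or lymphatic-type barcode held at least 3 UMIs of that list and more than of the capillary list, other endothelial barcodes with at least 3 UMIs of the capillary list were capillary-type, and 192 stayed unnamed. This rule was chosen after the data were seen. Mural, immune and Schwann barcodes held at least 5 UMIs of their markers and adipocyte-marked ones at least 10. No doublet caller was run; leaving out barcodes with at least 3 UMIs of mural, immune or adipocyte markers was tried instead. The members and gene lists were chosen with earlier results of these data known. Named genes were the 8, list genes that passed (at most 4 per list, by size of change), the 10 most alike and the 5 least alike. The CACCTG form was looked for after the promoters were read.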

Additional observations from a re-analysis of the deposited data

Results flagged for a closer look

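Between mural and endothelial barcodes the age change of 2 of the 8 genes differed by a test of the difference itself. This test was not planned, nor were the age tests in mural and fibroblast barcodes. The same test of fibroblast minus endothelial barcodes called 0 of the 8, with 75 of 15383 genes called. For Tcf15, which encodes a helix-loop-helix factor, the mural minus endothelial difference was -0.89 on the log2 scale (SE 0.16, edgeR adjusted p = 0.0417): its fitted change was 0.30 in endothelial and -0.54 in mural barcodes. For the water channel gene Aqp1 it was -1.57 (SE 0.25, adjusted p = 0.0221), with 3 to 46 UMIs per library on the mural side. Both lost the call without Young 3D cold (adjusted p = 0.197 for Tcf15 and 0.118 for Aqp1) or Aged 3D cold (0.128 and 0.127), and Tcf15 also without Young 14D cold (0.0597) or Aged TN (0.159).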

How the results depend on the processing

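Genes called with age in endothelial barcodes numbered 165; the count was 96 by DESeq2, 899 with no filter on low counts, 19 with no temperature term, 73 at no more than 10% mitochondrial UMIs, 83 at 2 or more UMIs of the rule genes, 64 without barcodes holding mural, immune or adipocyte markers, 89 without lymphatic-type barcodes and 34 with equal barcodes thinned to 1000 UMIs. With temperature (34) it was 54 by DESeq2, 564 with no filter, 1 with no age term, 12 under the mitochondrial limit, 14 at 2 or more UMIs of the rule genes, 22 at Dcn below 10 per 10000 and 66 with equal thinned barcodes. In capillary-type barcodes the stricter definition gave 102 with age (49) and 209 with temperature (111), where DESeq2 gave 69. DESeq2 gave 119 with age in mural barcodes (609) and 16 for the mural minus endothelial difference (29). Leaving out 1 library gave 61 to 400 with age in endothelial, 19 to 321 in capillary-type and 354 to 1644 in fibroblast barcodes (1496), 76 to 207 with temperature in endothelial and 119 to 416 in capillary-type barcodes, 0 to 102 for the interaction (3) and 6 to 49 for the mural minus endothelial difference. In the fits with age and temperature as terms, this left 1 library alone at its temperature. That library then informed neither the age change nor the spread. Omitting one or the other library of a temperature thus gives no separate checks of age. Genes of the 8 whose share of barcodes was higher in every aged than in every young library numbered 0 at 1000 UMIs (7.18% of all genes), 3 at 2000 (6.91%) and 1 unthinned (0.365%). Unthinned, the young libraries were the deeper ones by median UMIs of endothelial barcodes.

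Of the single-gene results under all alternatives, 613 kept direction and side of the threshold, 36 newly passed, 27 no longer passed and 22 changed sign. The age change turned negative for C1qtnf9 without the marker-holding barcodes (-0.064) and with equal thinned barcodes (-0.28), for Rgcc with equal thinned barcodes (-0.010), and for Gpihbp1 (-0.069) and Tcf15 (-0.097) in the stricter capillary-type barcodes. The aged minus young share changed sign for Rgcc at 2000 UMIs (3.1 percentage points) and unthinned (0.815), and for Meox2 unthinned (-0.262). Without 1 library the age change of Rgcc ran from -0.022 to 0.19 in endothelial and from -0.094 to 0.049 in capillary-type barcodes, that of Gpihbp1 from -0.0032 to 0.11 and of Car4 from -0.0053 to 0.24 in capillary-type barcodes. The 14D cold change in endothelial barcodes ran from -0.30 to 0.0040 for Tcf15 and from -0.35 to 0.012 for C1qtnf9, and the mural minus endothelial difference of Meox2 from -0.072 to 0.085. None of these passed the threshold in the main test, and the cause was not tested. No paired analysis was possible because replicate numbers pair nothing here, with 1 library for each age and temperature; the temperature term sets aged beside young libraries of the same temperature. With 540 to 1758 endothelial barcodes in a library and 1 library per condition, small changes were not detectable.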

Other observations

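Rgcc was also measured outside the vessel wall. Its level was 294 to 450 CPM in Schwann barcodes (167 barcodes), 65.5 to 234 CPM in immune barcodes (361) and 515 to 1862 CPM in adipocyte-marked barcodes (125, with 11 to 50 per library). Meox2 was measured in lymphatic-type barcodes at 116 to 312 CPM, from 5 to 22 barcodes per library.

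In venular-type barcodes Aqp1 stood at 426, 785 and 335 CPM in young and 861, 1197 and 1168 CPM in aged libraries at TN, 3D and 14D cold, so that each aged library lay above each young one. The same held for Meox2, at 57.1, 70.4 and 47.1 CPM in young and 107, 80.2 and 92.9 CPM in aged libraries. It also held for C1qtnf9, at 88.8, 111 and 84.2 CPM in young and 120, 152 and 147 CPM in aged libraries. Rgcc lay the other way, at 980, 922 and 1333 CPM in young and 705, 778 and 723 CPM in aged libraries. Gpihbp1, Aqp7, Tcf15 and Car4 overlapped between the ages. These levels were not tested with age, and the share of all genes separated in this way was not counted. The Aged 14D cold library held 31 venular-type barcodes.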
